A study of Homo sapiens with 3 samples.

Results

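MYC binding was examined at 9 genes of the DNA damage response: ATM, ATR, CHEK1, CHEK2, BRCA1, TP53BP1, MDM2, CDKN1A and GADD45A. Each gene was represented by 1 transcription start site (TSS) on hg19, and a listed MYC region belonged to a gene when its summit lay within 5 kb of that site. This rule gave 13 of 31378 regions in untreated cells and 10 of 27614 regions after MST-312. The regions come from ChIP-seq, in which DNA bound by MYC is precipitated and sequenced. The cells were P493, a line of human B cells whose MYC gene can be switched off. The series holds 3 libraries, all from P493: an input of untreated cells, an untreated anti-MYC ChIP, and an anti-MYC ChIP after treatment with the telomerase inhibitor MST-312. How much MST-312 was used, for how long, and whether the MYC gene was switched on are not given in these sources.

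DNA breaks and stalled replication forks activate the kinases ATM and ATR, which pass the signal to the checkpoint kinases CHK2 and CHK1. Mediators such as BRCA1 and 53BP1 gather at the lesion, and p53 induces target genes that halt the cell cycle or limit p53 itself. MYC is a transcription factor that binds DNA with MAX, most tightly at the E-box word CACGTG, and is known both for raising growth genes and for repressing CDKN1A and GADD45A.

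Each condition is 1 library, so no difference below has a replicate check and none was tested. Pileup is the number of extended fragments over a summit, and it is also given per 1000000 kept tags, written FPM (60805153 in the untreated and 55400354 in the treated library). Brackets hold 95% intervals, exact Poisson for pileups, conditional binomial for ratios and Clopper-Pearson for shares. They cover counting error only, not the spread between libraries, and PCR copies cannot be told from separate molecules here. Whether 2 pileup intervals overlap was judged in FPM. Kept tags are those left after the authors' filtering, 75.5% of 80489246 tags for untreated cells and 50.9% of 108838301 for MST-312. The rate of redundant tags before this filtering was 0.24 for untreated cells and 0.49 for MST-312. Its part in the differences was not tested. In chromatin from a whole culture, fewer cells with MYC at a site and less MYC per cell cannot be told apart.

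Promoter sequences are shown for the kinase genes ATM and ATR, for BRCA1, which had a listed region in 1 library only, and for CDKN1A, which had the most regions. Each line gives the 250 bases before a RefSeq start in GRCh38.p14, 5′ to 3′ on the gene's strand, with in capitals the words of the form CANNTG, and CACGCG on either strand. They span chr11:108222817-108223066 (plus strand, the first of 2 ATM starts), chr3:142578734-142578983 (minus strand), chr17:43125365-43125614 (minus strand, the second of 2 BRCA1 starts) and chr6:36678464-36678713 (plus strand). These positions belong to another build than the MYC regions and were not compared with them.
ATM: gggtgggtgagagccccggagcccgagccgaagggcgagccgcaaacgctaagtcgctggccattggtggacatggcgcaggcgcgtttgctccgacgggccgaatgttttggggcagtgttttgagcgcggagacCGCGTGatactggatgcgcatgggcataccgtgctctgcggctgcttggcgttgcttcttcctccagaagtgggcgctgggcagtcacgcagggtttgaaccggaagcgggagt
ATR: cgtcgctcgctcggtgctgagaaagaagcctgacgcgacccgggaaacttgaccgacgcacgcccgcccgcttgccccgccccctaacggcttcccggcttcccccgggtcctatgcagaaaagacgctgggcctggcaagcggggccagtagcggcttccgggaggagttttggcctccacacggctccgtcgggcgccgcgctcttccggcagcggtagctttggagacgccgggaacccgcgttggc
BRCA1: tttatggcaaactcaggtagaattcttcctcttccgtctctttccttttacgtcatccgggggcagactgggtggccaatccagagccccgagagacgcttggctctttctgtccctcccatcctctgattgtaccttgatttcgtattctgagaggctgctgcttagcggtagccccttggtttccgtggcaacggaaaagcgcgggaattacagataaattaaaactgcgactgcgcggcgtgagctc
CDKN1A: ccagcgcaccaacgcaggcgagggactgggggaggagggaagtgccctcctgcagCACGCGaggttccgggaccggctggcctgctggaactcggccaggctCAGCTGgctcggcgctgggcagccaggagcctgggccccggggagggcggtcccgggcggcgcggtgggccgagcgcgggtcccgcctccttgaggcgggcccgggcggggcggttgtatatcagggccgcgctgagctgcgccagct

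RefSeq promoters of 300 bases (250 before and 50 after the start) were found for 8 of the 9 genes, 15 promoters in all; GADD45A had no entry. The canonical E-box CACGTG was in none of the 15, while 7.26% of all 35116 promoters of this length hold it, and 8.77% of 27305 genes hold it in at least 1 promoter. With CACGCG on either strand added, ATM and CDKN1A had a match, against 20.3% of all genes. ATM held it on the reverse strand, with its first printed base 114 bases upstream of the start, and CDKN1A held it on the gene's strand 195 bases upstream. The looser word CANNTG, read the same on both strands, was in promoters of 5 of the 8 genes (BRCA1, CDKN1A, CHEK1, CHEK2 and MDM2), against 73.1% of all genes. In BRCA1 it occurred only at the first listed start, which is not the one printed. These windows are short, and listed MYC regions at the 9 genes were 415 to 1944 bp long in untreated cells.

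MYC regions lay at the promoters of all 9 genes in untreated cells and of 8 after MST-312. In the untreated list the summit nearest to the TSS was 14 to 501 bp away (median 124 bp), and 8 of 9 TSSs lay inside a region. After MST-312 the 8 nearest summits were 5 to 459 bp away (median 102.5 bp), and 6 TSSs lay inside a region. The share of all promoters with a listed region was not computed here, so these counts are not a result about these genes in particular. BRCA1 was the gene with no MST-312 region within 5 kb. Of the 13 untreated regions, 10 shared bases with an MST-312 region, against 53.6% of all untreated regions. In the other direction all 10 MST-312 regions had an untreated partner, against 63.3% of that list. Of these 10, 9 had a pileup above the MST-312 list's median of 50 fragments. They were not set beside MST-312 regions of like pileup. The map of regions around the start sites shows that most genes had a single region over the TSS, that CDKN1A had several, and that ATM had a second one.

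**Figure D1:**
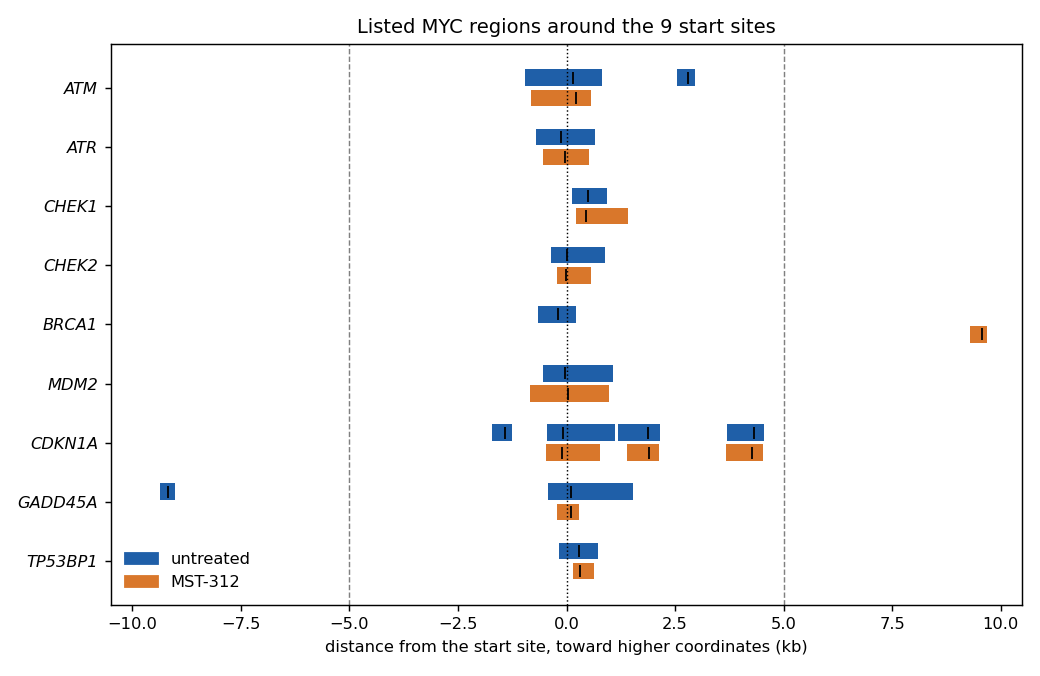
Listed MYC regions within 10 kb of the 9 start sites, in kb from the TSS toward higher coordinates (blue, untreated; orange, MST-312); bars span each region, black ticks mark summits and dashed lines the 5 kb limit. BRCA1 has an untreated bar at the TSS and an MST-312 bar only beyond 5 kb, and the GADD45A bars are 1944 and 500 bp long.

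At most of these promoters the MYC signal was lower after MST-312, by about as much as over all paired regions. In FPM, 9 of the 10 paired regions were lower and 1 was higher, against 79.0% lower and 21.0% higher of all 15265 pairs in which 1 untreated region met 1 MST-312 region. The median ratio of MST-312 to untreated pileup was 0.755 over the 10 pairs (range 0.552 to 1.40). It was 0.758 over all pairs (quartiles 0.620 and 0.954; median log2 ratio -0.40). The interval of the ratio lay below 1 at 5 of the 10 pairs (ATR, CHEK1, CHEK2, MDM2 and the CDKN1A promoter), above 1 at 1 and across 1 at 4. Over all pairs the shares were 46.4% below 1, 2.90% above 1 and 50.7% across 1. Ratios of 1/1.5 or below were found at 3 of the 10 pairs (CHEK1, CHEK2 and MDM2), against 33.6% of all pairs, and ratios of 1.5 or above at 0 of the 10, against 2.29%. When each list was divided by its own median over all pairs, 5 of the 10 were below 1 and 5 above. The members' shares and median were thus near those of all pairs. In untreated cells the member pairs had a median pileup of 134 fragments, against 99 over all pairs. Weak untreated regions seldom had a partner, so large falls among them can be missing from all pairs. Pairs of like pileup were not compared, which also limits the shares of all pairs given for single genes below.

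**Figure D2:**
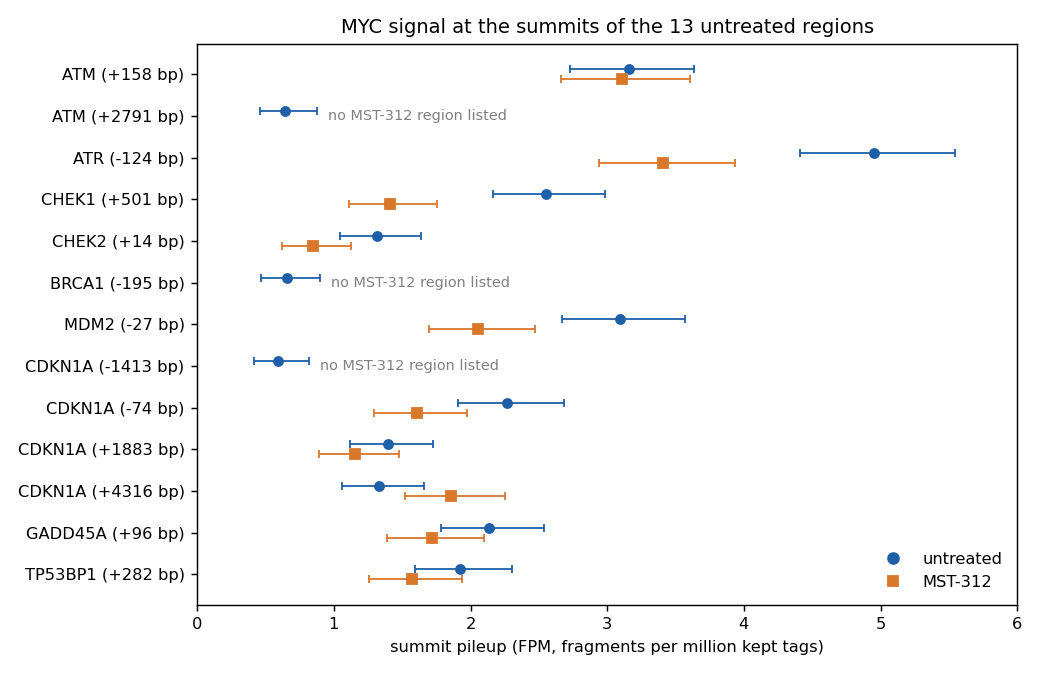
Summit pileup in FPM (fragments per 1000000 kept tags) at the 13 untreated MYC regions and their MST-312 partners, with exact Poisson 95% intervals; labels give the untreated summit's distance from the TSS in bp toward higher coordinates. ATR is highest in both lists, 3 regions have no MST-312 partner, and only the CDKN1A region at +4316 bp is higher after MST-312.

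The gene of the apical kinase ATR, which responds to stalled replication forks, carried the strongest MYC region of the group. The untreated region at chr3:142296954-142298323 had a pileup of 301 fragments (268.0 to 337.0), or 4.95 FPM, with its summit 124 bp downstream of the TSS. After MST-312 the region at chr3:142297135-142298185 had 189 fragments (163.0 to 218.0), or 3.41 FPM, with its summit 28 bp downstream. The intervals did not overlap, and the ratio was 0.689 (0.571 to 0.829). The authors' fold enrichment over local background was 31.2 in untreated cells, where 98.4% of listed regions were at or below it. It was 21.3 after MST-312, where 98.2% were at or below it. Of all pairs, 37.9% had a ratio as low or lower than that of ATR.

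ATM, the kinase that responds to double-strand breaks, had nearly the same summit pileup in both lists. The untreated region at chr11:108092607-108094370 had 192 fragments (165.8 to 221.2), or 3.16 FPM. The MST-312 region at chr11:108092730-108094115 had 172 fragments (147.3 to 199.7), or 3.10 FPM. The intervals overlapped widely, and the ratio was 0.983 (0.796 to 1.21), the highest of the regions nearest a TSS. Of all pairs, 77.5% had a ratio as low or lower. The fold enrichment was 14.3 in untreated cells and 10.9 after MST-312, with a local background of 12.5 and 14.9 fragments, so that the ratio of fold enrichments was lower, at 0.761. ATM also had a weak untreated region downstream, at chr11:108096099-108096513, with its summit 2791 bp from the TSS and 39 fragments. It had no MST-312 partner, as was so for all but 84 (14.0%) of the 601 untreated regions with that pileup.

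The checkpoint kinase genes had lower MYC signal after MST-312 than in untreated cells. At CHEK1, whose kinase acts below ATR, the untreated region at chr11:125495159-125495971 had 155 fragments (131.6 to 181.4), or 2.55 FPM. The MST-312 region at chr11:125495245-125496440 had 78 fragments (61.7 to 97.3), or 1.41 FPM. The intervals did not overlap, and the ratio of 0.552 (0.415 to 0.730) was the lowest of the 10 pairs, with 14.2% of all pairs as low or lower. Neither CHEK1 region held the TSS, which lay 128 bp before the untreated region and 214 bp before the MST-312 region. The local background was 11.6 fragments at the untreated summit and 14.9 at the MST-312 summit, 42 bp apart. Here too it comes from the same input for both lists, not from the treated chromatin.

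At CHEK2, whose kinase acts below ATM, the untreated region at chr22:29137455-29138714 had 80 fragments (63.4 to 99.6), or 1.32 FPM. The MST-312 region at chr22:29137603-29138378 had 47 fragments (34.5 to 62.5), or 0.848 FPM. The pileup intervals overlapped slightly in FPM, while the ratio was 0.645 with an interval below 1 (0.440 to 0.936), with 29.4% of all pairs as low or lower. The 2 summits lay 19 bp apart, on either side of the TSS. With a −log10 q of 18.9 after MST-312, CHEK2 was the weakest of the 10 MST-312 regions and the nearest to the lowest listed value of 13.02.

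BRCA1, a mediator of homologous recombination repair, had a listed MYC region in untreated cells only. The region at chr17:41276847-41277720 held the TSS, with its summit 195 bp downstream and 40 fragments (28.6 to 54.5), or 0.658 FPM. It was weak for its list, in which 21.5% of regions had a pileup as low or lower, and its −log10 q was 16.3 against a lowest listed value of 13.01. Of the 565 untreated regions with 40 fragments, 102 had an MST-312 partner (18.1%, 15.0 to 21.5). The MST-312 local background at this site was not measured. It was taken as the untreated one scaled by kept tags, 5.97 fragments. Among MST-312 regions with a local background within 10% of that value, the lowest listed pileup was 33 fragments, or 0.596 FPM. A pileup 9.45% lower in FPM could therefore already have been left off the list, and the size of any difference at BRCA1 is not known. The nearest MST-312 region, at chr17:41286798-41287173, had its summit 9561 bp upstream of the TSS, just outside the 5 kb limit, with 38 fragments and no untreated partner.

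TP53BP1 encodes 53BP1, a mediator that favours end joining of double-strand breaks. Its untreated region at chr15:43802522-43803431 had 117 fragments (96.8 to 140.2), or 1.92 FPM. Its MST-312 region at chr15:43802852-43803331 had 87 fragments (69.7 to 107.3), or 1.57 FPM. The intervals overlapped, and the ratio was 0.816 (0.611 to 1.09). The summits lay 282 and 312 bp upstream of the TSS, and the TSS was inside the untreated region but 145 bp outside the shorter MST-312 region.

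MDM2 encodes the ubiquitin ligase that degrades p53. Its untreated region at chr12:69201405-69203030 had 188 fragments (162.1 to 216.9), or 3.09 FPM, behind only ATR and ATM. Its MST-312 region at chr12:69201105-69202936 had 114 fragments (94.0 to 136.9), or 2.06 FPM. The intervals did not overlap, and the ratio was 0.666 (0.523 to 0.844), with 33.4% of all pairs as low or lower. Untreated MDM2 and ATM thus had nearly equal pileups, 188 and 192 fragments, while their MST-312 pileups of 114 and 172 fragments had intervals that did not overlap. The intervals of their ratios did overlap slightly (0.523 to 0.844 for MDM2 and 0.796 to 1.21 for ATM).

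CDKN1A encodes the cyclin-dependent kinase inhibitor p21, a main p53 target. It had 4 untreated and 3 MST-312 regions within 5 kb, more than any other of the 9 genes, covering 3860 and 2834 bp. At the promoter, the untreated region at chr6:36646003-36647579 had 138 fragments (115.9 to 163.0), or 2.27 FPM. Its MST-312 partner at chr6:36645982-36647221 had 89 fragments (71.5 to 109.5), or 1.61 FPM, and the ratio was 0.708 (0.536 to 0.931). The pileup intervals overlapped slightly in FPM, while that of the ratio lay below 1. The ratio of fold enrichments was higher, at 0.896. The local background, from the same input for both lists, was 12.5 fragments at the untreated summit and 8.78 at the MST-312 summit.

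The next CDKN1A region downstream, at chr6:36647655-36648610 in untreated cells and chr6:36647846-36648580 after MST-312, had summits 1883 and 1888 bp from the TSS. It had 85 and 64 fragments, or 1.40 and 1.16 FPM, with a ratio of 0.826 (0.588 to 1.16). The farthest downstream region was the one that was higher after MST-312. At chr6:36650162-36651017 in untreated cells it had 81 fragments (64.3 to 100.7), or 1.33 FPM. At chr6:36650122-36650980 after MST-312 it had 103 fragments (84.1 to 124.9), or 1.86 FPM. The pileup intervals overlapped, while the ratio was 1.40 with an interval just above 1 (1.03 to 1.89), with 96.4% of all pairs as low or lower. Its fold enrichment was 9.56 in untreated cells and 13.2 after MST-312, and its summits lay 51 bp apart. It had the lowest untreated pileup but CHEK2 among the 10 pairs while its MST-312 pileup was behind only ATR, ATM and MDM2.

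A weak untreated CDKN1A region upstream, at chr6:36644738-36645208, had 36 fragments and no MST-312 partner. The nearest MST-312 region began 774 bp away and was the one already paired with the untreated promoter region. Only with a gap of up to 1 kb allowed does the upstream region count as paired, with that same MST-312 region. At the local background expected there, set as for BRCA1, the lowest listed MST-312 pileup was 32 fragments, only 2.44% below the upstream region in FPM. Farther upstream, and chosen after its values were seen, a region 11405 bp from the TSS had 165 fragments in untreated cells (chr6:36634666-36635375) and 139 after MST-312 (chr6:36634668-36635404). Its ratio was 0.925 (0.732 to 1.17), and its fold enrichment was 19.1 and 17.4, above that of the CDKN1A promoter in both lists (10.3 and 9.20).

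GADD45A encodes a stress-induced protein with roles in growth arrest and repair. Its untreated region at chr1:68150463-68152406 had 130 fragments (108.6 to 154.4), or 2.14 FPM. Its MST-312 region at chr1:68150670-68151169 had 95 fragments (76.9 to 116.1), or 1.71 FPM. The intervals overlapped, and the ratio was 0.802 (0.609 to 1.05). The summits lay 4 bp apart, 96 and 92 bp from the TSS toward higher coordinates. Just outside the limit, a weak untreated region at chr1:68141529-68141862 had its summit 9183 bp from the TSS, with 39 fragments and no MST-312 partner.

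**Figure D3:**
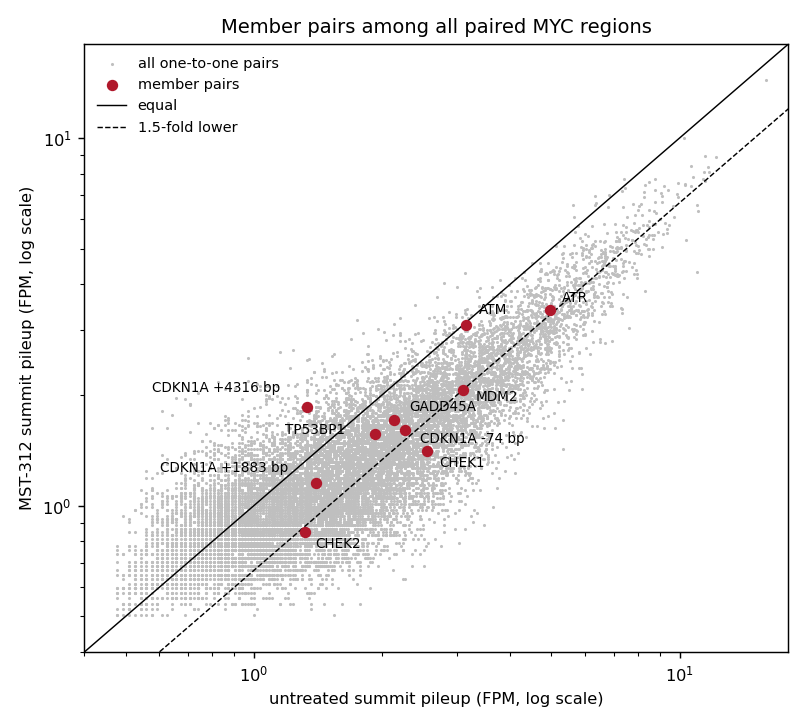
MST-312 against untreated summit pileup, both in FPM on log axes, for 15265 pairs of MYC regions (grey) and the 10 member pairs (red); the solid line marks equal values and the dashed line a value 1.5-fold lower. The member pairs lie within the grey cloud, with ATM on the solid line, CDKN1A at +4316 bp above it and CHEK1 below the dashed line.

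Whether a region had a partner went with its pileup. The 3 untreated regions without one had 36, 39 and 40 fragments, and the 10 with one had 80 to 301. Among all untreated regions divided into 10 equal parts by pileup, 12.2% had a partner in part 2 (34 to 40 fragments) and 22.3% in part 3 (40 to 46). The share was 74.9% in part 7 (75 to 94 fragments), which holds CHEK2 and the 2 downstream CDKN1A regions with partners, and 89.4% in part 8, which holds TP53BP1. It was 97.2% in part 9, with CHEK1, GADD45A and the CDKN1A promoter, and 99.6% in part 10, with ATM, ATR and MDM2.

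MYC regions at these genes were mostly shorter after MST-312. Of the 10 pairs, 7 were shorter and 3 longer, against 75.4% shorter and 24.5% longer of all pairs. Their median length was 1315 bp in untreated cells and 955 bp after MST-312, against 998 and 773 bp over all pairs. The median length ratio was 0.777 for the members and 0.832 for all pairs (quartiles 0.653 and 0.997).

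GADD45A had the lowest length ratio, at 0.257 (1944 to 500 bp), and 0.642% of all pairs were as low or lower. Its pileup ratio of 0.802 was above the median of all pairs. No other MST-312 region lay within 10 kb of its TSS. CHEK1 was the opposite case. It had the lowest pileup ratio, 0.552, and the highest length ratio, 1.47 (813 to 1196 bp), with 95.8% of all pairs as low or lower. MDM2 was also longer after MST-312 (1626 and 1832 bp) with a lower pileup. The downstream CDKN1A region with the higher MST-312 pileup had nearly equal lengths of 856 and 859 bp. The other paired regions had length ratios between 0.527 (TP53BP1, 910 and 480 bp) and 0.786 (ATM, 1764 and 1386 bp, and the CDKN1A promoter, 1577 and 1240 bp).

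**Figure D4:**
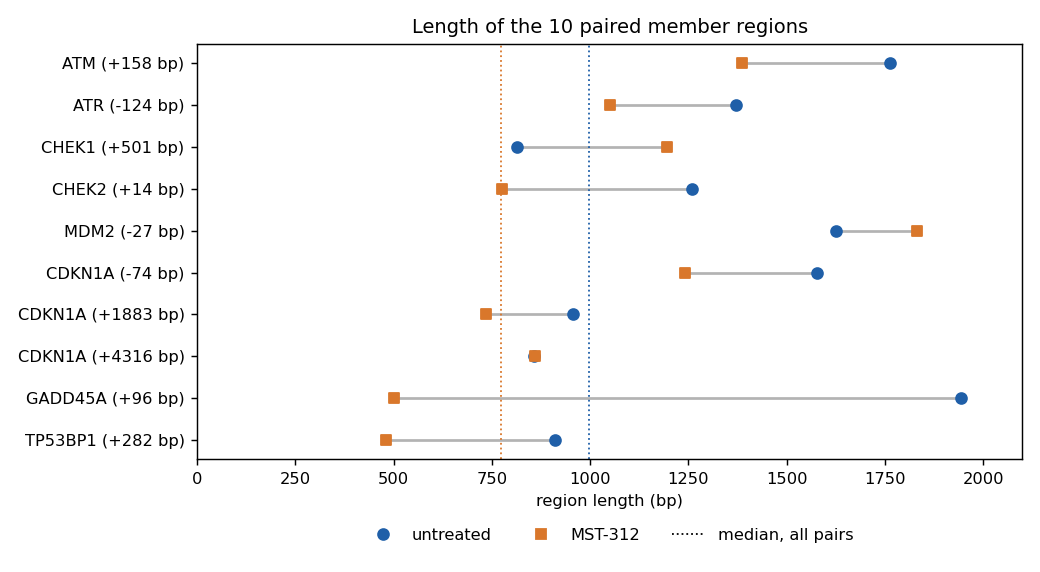
Length in bp of the 10 paired MYC regions in untreated cells (blue circles) and after MST-312 (orange squares), with dotted lines at the medians over all pairs (998 and 773 bp). GADD45A has the widest gap, 1944 against 500 bp, and CHEK1 and MDM2 are longer after MST-312.

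The positions of paired summits were close. At all 10 pairs they lay within 100 bp, from 4 bp (GADD45A) to 96 bp (ATR) apart, with a median of 40.5 bp. Over all pairs 74.7% lay within 100 bp, and the median was 46 bp (quartiles 19 and 102).

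Several of the promoters are shared, so a MYC region there cannot be given to 1 gene. In GRCh38.p14, a RefSeq start on the opposite strand lies within 1 kb of a start of 6 of the 8 genes with an entry. These neighbours are NPAT at ATM, HSCB at CHEK2, NBR2 at the printed BRCA1 start, NBR1 at the other BRCA1 start, MAP1A at TP53BP1, DINOL at CDKN1A and an uncharacterised locus at CHEK1. NPAT encodes a coactivator of histone gene transcription, and DINOL is a long non-coding RNA induced by DNA damage. ATR and MDM2 had no such neighbour.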

How the data were processed

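MYC ChIP-seq libraries of untreated and MST-312-treated P493 cells were compared through the authors' peak lists, 1 per library. Reads were processed with CASAVA 1.8, Bowtie2 2.2.3 and MACS2 2.0.10.20131216 and aligned to hg19, per the submitters' processing notes. The authors called peaks library by library against the same input with a fragment length of 200 bp, per the file headers. The deposited pileup is a signal value in fragments at the summit, the deposited fold enrichment is a ratio to local background, and the −log10 q deposited beside it gives the strength of a call. MACS scaled the larger data set to the smaller, per the file headers; the input kept 63069522 tags, more than either ChIP library (60805153 and 55400354), which leaves the authors' pileups unscaled. The lists hold only calls with −log10 q of about 13 or more, under a filter not given in the sources used here.

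Regions were assigned to 9 TSS positions on hg19 by summits within 5 kb, and all 9 genes are named. Partners shared at least 1 bp. Pileups were expressed per 1000000 kept tags, with exact Poisson intervals and exact conditional binomial intervals for ratios, at 95%. Local background was back-calculated as (pileup + 1) / fold enrichment − 1. It comes from the same input for both lists. A fold of 1.5 was used for counts. The members, lists and rules were chosen with earlier results of these data known. A list of other damage response genes was not used here, since no hg19 gene positions beyond the 9 were at hand. Alternatives covered the window, strength, partner rule, scaling and motif. Scripts ran in Python 3.11.15 with numpy 2.4.6, pandas 2.3.3, scipy 1.17.1 and matplotlib 3.10.9, and were tested on simulated data.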

Additional observations from a re-analysis of the deposited data

How the results depend on the processing

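No paired analysis was possible because each condition is 1 library, and leaving out a replicate was not possible either. The number of genes with a region stayed between 8 and 9 in the untreated list and between 7 and 9 in the MST-312 list under the windows, thresholds and lists of equal length tried; BRCA1 gained an MST-312 region only with a 10 kb window. Of the 13 untreated regions, 9 to 11 had a partner under the other partner rules. The count of 11 includes the upstream CDKN1A region, through the MST-312 region already paired with the CDKN1A promoter. Dividing each list by its own median over all pairs turned the median pileup ratio from 0.755 to 1.02 and the median length ratio from 0.777 to 1.00; it left 5 of 10 pairs lower and 0 lower by at least 1.5-fold, and took the share of all pairs lower by 1.5-fold from 33.6% to 7.47%. This scaling removes the general difference between the libraries by construction. Unscaled pileups put 5 of 10 pairs, against 3, and 45.9% of all pairs at 1.5-fold lower or more. At 2-fold, 0 of 10 pairs and 7.98% of all pairs were lower. The downstream CDKN1A region was higher after MST-312 under each of the 4 other scalings (ratios of 1.27 to 1.88). These scalings all reuse the same summit pileups and so are not independent checks of that ratio. Among the ratios of single pairs under these scalings, 31 stayed within the interval of the reported ratio and 9 did not. The number of genes with an E-box word was 0 for CACGTG, 2 with the second word (CACGCG, either strand) added and 5 for the loose form CANNTG. The loose form and the other scalings over all pairs were added after seeing the data. The list of other damage response genes and its windows were not run.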
